A study of Mus musculus with 30 samples.

Results

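The genes described here are 46 that encode lysosomal enzymes and membrane proteins, chosen by name from a fixed list of symbols. All 46 were found, with 1 row each, among the 51752 genes of the count table. By role they comprise 13 proteases, 11 glycosidases, 5 sulfatases, 9 lipid enzymes and lipid carriers, 7 membrane proteins and 1 transcription factor, Tfeb. Their RNA was measured in 30 libraries from 15 saline-perfused mice, each of which gave a whole-forebrain library and a library of microglia isolated with an antibody to CD11b. The deletion experiment compared 3 knockout animals (labelled IL34 KO) with 4 heterozygous animals (IL34 Het), so its controls also carry the mutated allele. In the antibody experiment 4 wild-type animals received an antibody to IL34, and 4 control wild-type animals received one to gp120, a viral envelope protein that mice lack. The Het and anti-gp120 groups each held 2 males and 2 females, the KO group 1 male and 2 females, and the anti-IL34 group 3 males and 1 female. Age, strain, allele and antibody dosing are not given in the sources used here.

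Lysosomes are acidic organelles that break down material taken up from outside the cell or delivered by autophagy. Soluble hydrolases each cut 1 kind of bond, and heavily glycosylated membrane proteins such as LAMP1 and LAMP2 line the organelle. Microglia, the resident macrophages of the brain, clear debris and synaptic material through this route, and IL-34 is a ligand of their growth factor receptor CSF1R. TFEB is a transcription factor that activates many lysosomal genes by binding a palindromic E-box motif known as the CLEAR element, and PU.1 is the factor that shapes macrophage enhancers and promoters.

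Promoter windows were read because many of these genes moved in the same direction in the isolates. A RefSeq window from 250 bases before to 50 bases after a start site was held for 41 of the 46 genes. The E-box CACGTG, which is its own reverse complement, was present in the windows of 14 of the 41, against 8.09% of 27025 genes with a window. The longer palindrome TCACGTGA, which contains that E-box, was present in 5 of the 41 (Cd164, Ctsa, Ctsd, Gla and Mcoln1), against 1.12% of genes. The PU.1-like motif GAGGAAGT, searched on both strands and so also as ACTTCCTC, was present in 4 of the 41 (Ctsc, Ctss, Gla and Gusb), against 3.69%. Windows of 30 bases around a match follow for 4 genes chosen as examples. They come from RefSeq on GRCm38.p6, 5′ to 3′ on the gene's strand, with the motif in capitals. Ctsd and Cd164 carry the palindrome, and Ctss and Ctsc the PU.1-like motif.
Ctsd, chr7:142387908-142387937, minus strand: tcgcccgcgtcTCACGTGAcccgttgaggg
Cd164, chr10:41519401-41519430, plus strand: cgccgggctgcTCACGTGAccggcgcgcgc
Ctss, chr3:95526773-95526802, plus strand: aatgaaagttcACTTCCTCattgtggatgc
Ctsc, chr7:88277923-88277952, plus strand: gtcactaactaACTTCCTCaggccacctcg
The Ctss match began 2 bases before the start site and the Ctsc match 151 bases before it. Such a match describes the letters of the window and no binding was measured. Gla holds both kinds of motif in its window. Of the genes printed, Ctsc passed the threshold in none of the comparisons of arms given below. Man2b1, Arsb, Pla2g15 and Hexa passed in KO isolates and held none of these motifs. Genes with and without a match were found both among those that passed and among those that did not.

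Library totals ran from 15.06 M to 75.16 M counts. Il34 itself stood at 21.4 ± 2.37 CPM (library-size-scaled counts; SD, n = 4) in Het forebrain and 7.72 ± 0.991 CPM (SD, n = 3) in KO forebrain, with no overlap, so reads of the gene remained in the libraries labelled KO. In the antibody experiment Il34 was 36.1 ± 3.03 CPM with anti-gp120 and 38.3 ± 2.15 CPM with anti-IL34 (SD, n = 4 each). In isolates Il34 was 4.89 to 9.82 CPM in Het and 5.15 to 6.67 CPM in KO, so the groups overlapped and its level did not check the labels there. The isolates carried the defining genes of microglia: the summed level of 15 homeostatic markers was 9886 to 17212 CPM in Het isolates and 209 to 230.0 CPM in Het forebrain. They also held RNA of other cells. The 8 astrocyte markers summed to 3147 to 11083 CPM in Het isolates and 7021 to 7774 CPM in Het forebrain. The 9 oligodendrocyte-lineage markers summed to 3055 to 10042 CPM and 5231 to 6248 CPM, so the isolates overlapped the forebrain for both lists. Excitatory neuron markers were lower in the isolates, at 621 to 2320 CPM against 3838 to 4422 CPM. Endothelial markers were higher there, at 676 to 1138 CPM against 232 to 278 CPM. Levels in the isolates are therefore those of a mixture of cells. The choroid plexus markers differed between the experiments, at 1656 to 3933 CPM in Het isolates and 5.92 to 10.97 CPM in anti-gp120 isolates.

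In the control animals most of the 46 genes stood far higher in the isolated microglia than in the forebrain, and the cathepsins of phagocytes led. In a joint fit of the 16 control libraries, 42 genes were higher and 3 lower in the isolates (edgeR, Benjamini-Hochberg adjusted p under 0.05), where 40.5% of the 19952 genes tested were higher, 43% lower and 83.5% either. The median log2 difference was 2.41 over the 46 genes and -0.05 over all genes tested. Ctss, the cathepsin that trims the invariant chain of MHC class II, was highest by this measure at 5.84 (SE 0.20), followed by Ctsc, which activates serine proteases, at 5.74 (SE 0.15), and Cd68, a heavily glycosylated phagocyte membrane protein, at 5.59 (SE 0.16). The next genes were Ctsz at 4.70, the asparagine-specific protease Lgmn at 4.56, and Ctsd, the main aspartyl protease of lysosomes, at 4.54.

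The genes with the smallest p in the upward direction were Ctsc, Cd68, Man2b1, Ctsd, Gusb, Ctsz, Lgmn and Hexa. In the other roles the highest were Gla at 4.21, Pla2g15 at 4.05 and the sulfamidase Sgsh at 2.17, and the lowest membrane proteins were Mcoln1 at 0.49 and Scarb2 at 1.298. Lamp1 was 1.79 higher. By role, 12 of 13 proteases, 10 of 11 glycosidases, 4 of 5 sulfatases, 8 of 9 lipid genes, all 7 membrane proteins and Tfeb were higher. The 3 lower genes came from different roles: the sulfatase Ids at -0.98 (SE 0.17), the osteoclast collagenase Ctsk at -0.81 (SE 0.11) and the sphingomyelinase Smpd1 at -0.58 (SE 0.08). The glycogen-degrading enzyme Gaa did not pass, at 0.19 (edgeR adjusted p = 0.135). Ctsk and Ctss lie next to each other on chromosome 3, 17.42 kb apart. Ctss was highest in this order and Ctsk was the lowest except Ids. Tfeb was 2.83 higher, at 36.9 ± 9.84 CPM (SD, n = 4) in Het isolates and 6.01 ± 0.388 CPM (SD, n = 4) in Het forebrain.

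Levels can be set against each other between genes only per length. Per kb of exon, Psap, the precursor of the saposin cofactors, was highest in Het forebrain at 324.8 CPM per kb, followed by Ids at 128.3 and Lamp1 at 107.7. In Het isolates Ctss was highest at 1127 CPM per kb, followed by Lgmn at 803.9 and Psap at 671.0. The anti-gp120 animals had the same first 3 genes in the same order in both tissues. Reads were counted over whole gene spans, and per kb of span Psap, Ids and Lamp1 still led the forebrain, whereas Cd68, Ctsb and Psap led the Het isolates at 120.5, 80.9 and 73.7 CPM per kb. The order of the isolates therefore depended on the length used.

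Deletion of Il34 lowered Ctss in the forebrain and changed 1 other of the 46 genes there. Ctss stood at 21.9, 22.5, 21.5 and 23.0 CPM in the Het animals and at 8.52, 9.17 and 8.598 CPM in the KO animals. The libraries of each group lay close together and the groups did not overlap. The fitted level in KO was 39.4% of Het (log2 fold change -1.34, SE 0.07, Benjamini-Hochberg edgeR adjusted p = 4.2e-07), and it passed in all 7 fits that left out 1 animal, with a highest edgeR adjusted p of 2.0e-05. Lgmn was the only other gene to pass. It stood at 84.8, 88.7, 85.4 and 82.3 CPM in Het and 71.0, 68.6 and 73.0 CPM in KO, so the groups were again separate. Its level was 82.9% of Het (log2 -0.27, SE 0.04, edgeR adjusted p = 0.011), and the edgeR adjusted p became 0.241 without KO animal 3, 0.059 without KO animal 24 and 0.26 in a fit of all 15 forebrain libraries. The 2 genes lowered compare with 0.615% of the 19343 genes tested being lower, and none of the 46 was higher (0.00517%). Whole-forebrain values cannot tell fewer microglia from less RNA in each microglial cell.

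The other 44 genes did not pass in the forebrain of KO animals, and their values were small. Of the 46, 36 had a log2 fold change below 0 (50.1% of all genes tested), with a median of -0.09 against 0.00 over all genes. Every KO library was below every Het library for 13 of the 46 (5.24% of all genes tested) and above for 1 (3.8%). Among proteases, 12 of 13 values were below 0 and Ctsb, an abundant cysteine protease, was highest at 0.01. Ctsd stood at 33.7 ± 0.427 CPM (n = 4) and 31.0 ± 1.69 CPM (n = 3, SD), a log2 value of -0.13. Membrane proteins had 7 of 7 values below 0, from Cd68 at -0.28 (SE 0.12, edgeR adjusted p = 0.65) and Lamp1 at -0.09 to Mcoln1, a lysosomal calcium channel, at -0.02. Glycosidases ran from Gusb at -0.22 to Gla, the enzyme that cleaves terminal galactose from glycolipids, at 0.28. Gla was the 1 gene with separate groups in the upward direction, at 9.09 to 10.2 CPM in Het and 10.6 to 12.2 CPM in KO (edgeR adjusted p = 0.26). Sulfatases ran from Sgsh at -0.33 to Ids at 0.06, and lipid genes from the cholesterol carrier Npc2 at -0.20 to Smpd1 at 0.05. Tfeb was 6.01 ± 0.388 CPM (n = 4) and 5.51 ± 0.686 CPM (n = 3, SD), a log2 value of -0.10.

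Markers of microglia fell further than most of the lysosomal genes. The 15 homeostatic markers summed to 209 to 230.0 CPM in Het forebrain and 83.8 to 91.0 CPM in KO forebrain. None was at 0 in a group, and 13 of 15 were lower, with a median log2 fold change of -1.29. Csf1r was -1.42 and P2ry12 -1.85. The 9 oligodendrocyte-lineage markers were also lower in sum, at 5231 to 6248 CPM in Het and 4281 to 4587 CPM in KO, with 4 of 9 past the threshold. Border-associated macrophage markers summed to 29.7 to 37.9 CPM in Het and 21.6 to 27.5 CPM in KO, with 0 of 8 past the threshold and a median log2 fold change of -0.45. The part of these markers in the lysosomal values was not tested.

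The antibody experiment gave the same single leading gene in the forebrain. Ctss was 54.4, 41.2, 52.8 and 60.3 CPM with anti-gp120 and 25.1, 22.3, 37.8 and 31.1 CPM with anti-IL34. The groups did not overlap, although anti-IL34 animal 2 at 37.8 CPM came close to anti-gp120 animal 15 at 41.2 CPM. The fitted level was 52.7% of the control (log2 -0.92, SE 0.15, Benjamini-Hochberg edgeR adjusted p = 0.016), where 0.525% of the 17143 genes tested were lower. It passed in 6 of 8 fits that left out 1 animal, with an edgeR adjusted p of 0.193 when anti-IL34 animal 11 was left out and 0.051 when anti-gp120 animal 7 was. Control levels of Ctss differed between the experiments, at 22.2 ± 0.654 CPM in Het and 52.2 ± 7.99 CPM in anti-gp120 forebrain (SD, n = 4 each), and genotype and experiment cannot be told apart there.

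None of the other 45 genes passed in the antibody forebrain. Cd68 was nearest after Ctss, at 6.35, 5.11, 7.97 and 6.64 CPM with anti-gp120 and 4.72, 3.11, 5.26 and 4.64 CPM with anti-IL34. Its groups overlapped, through anti-IL34 animal 2 and anti-gp120 animal 15, and its log2 fold change was -0.67 (SE 0.15, edgeR adjusted p = 0.09; 0.039 in a fit of all 15 forebrain libraries). Of the 46 genes 35 were below 0 (49.7% of all genes tested), with a median of -0.07 against 0.00 over all genes, and the groups were separate in the downward direction for 7 (2.07% of all genes tested): Ctsc, Ctsh, Ctss, Cd164, Hexa, Gusb and Npc2. In the upward direction they were separate for 0 (1.2%). Ctsc was -0.31 (SE 0.09), Lgmn -0.28 (SE 0.08) and Ctsd -0.23 (SE 0.08). Among glycosidases Gusb was -0.31 and Gaa 0.08, among sulfatases Arsb -0.07 and Ids -0.03, and among lipid genes Npc2 -0.14 and Lipa, the acid lipase, 0.06. Lamp1 was -0.04, Mcoln1 0.05, Ctsk 0.01 and Tfeb -0.15. The homeostatic microglia markers summed to 316 to 427 CPM with anti-gp120 and 132 to 195 CPM with anti-IL34, none was at 0 in a group, and 13 of 15 were lower, with a median log2 fold change of -1.41. Border-associated macrophage markers summed to 34.6 to 43.2 CPM and 14.0 to 26.8 CPM, with 1 of 7 tested lower and a median of -0.56. The part of both in the lysosomal values was not tested.

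**Figure D1:**
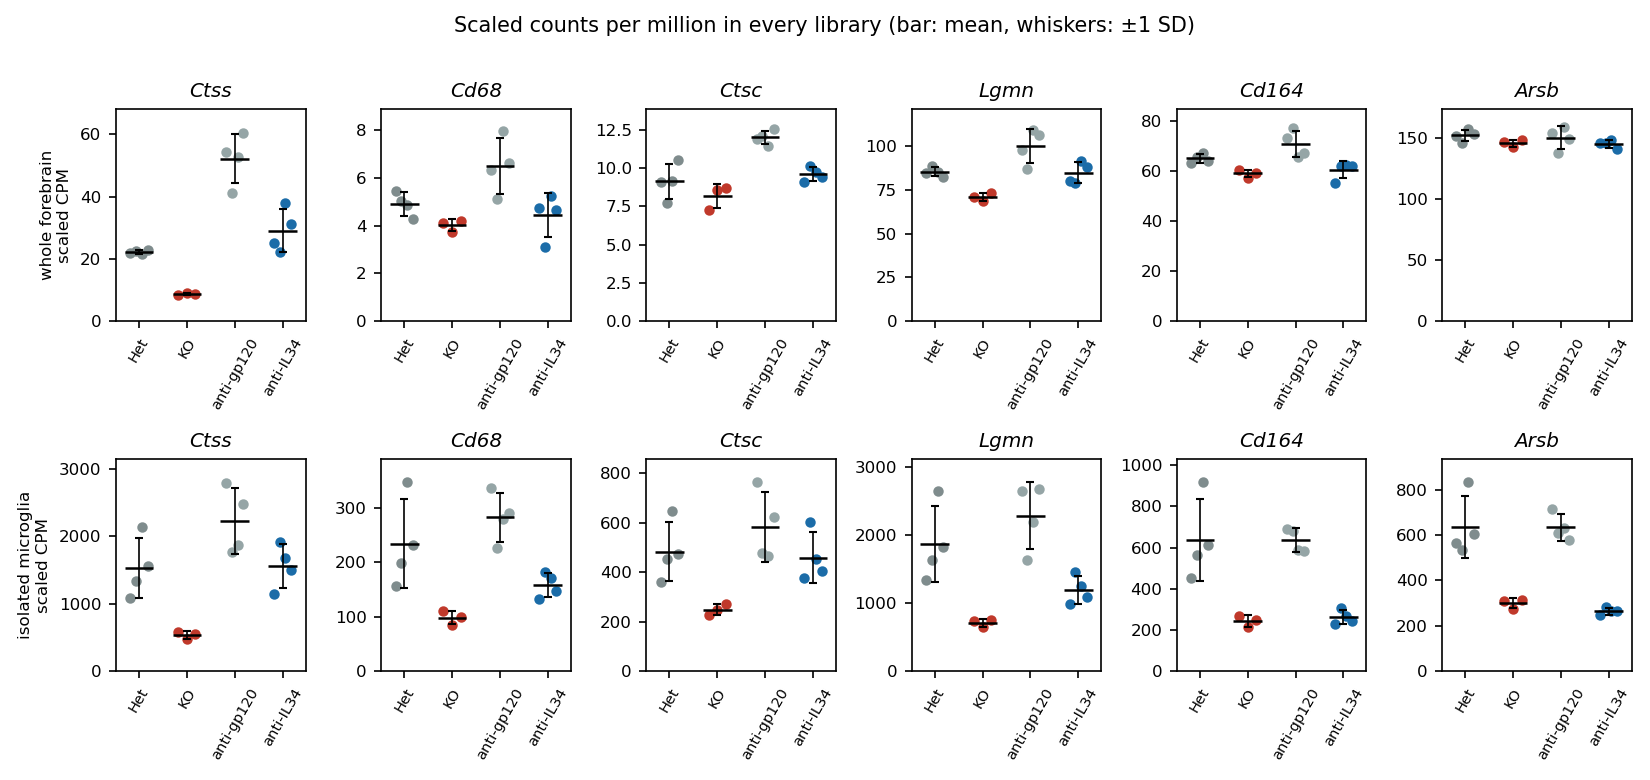
Scaled CPM of 6 lysosomal genes (columns) in every library of whole forebrain (upper row) and isolated microglia (lower row), by group; points are libraries, horizontal bars means and whiskers 1 SD. Forebrain Ctss sits between 21.5 and 23.0 CPM in Het and between 8.52 and 9.17 CPM in KO, whereas the groups overlap for forebrain Arsb and are separate for Arsb in the isolates.

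Genes enriched to a like degree in the isolates had unlike values in the forebrain, a contrast between genes that was not tested. Ctss, Cd68 and Ctsc were 5.84, 5.59 and 5.74 higher in isolates on the log2 scale. Their deletion values in forebrain were -1.34 (SE 0.07), -0.28 (SE 0.12) and -0.14 (SE 0.11). Their antibody values were -0.92 (SE 0.15), -0.67 (SE 0.15) and -0.31 (SE 0.09). Forebrain Ctsc was 7.76 to 10.5 CPM in Het and 7.29 to 8.73 CPM in KO, so the groups overlapped. Forebrain Cd68 was 4.27 to 5.47 CPM in Het and 3.74 to 4.21 CPM in KO, and the groups were separate by a small margin. Over the 10 genes at least 4 higher in isolates on the log2 scale, the median deletion value was -0.16 in forebrain and -1.27 in isolates. Over the 18 genes between 2 and 4 the medians were -0.08 and -0.94, and over the 15 between 0 and 2 they were -0.05 and -0.38. The 3 genes lower in isolates, Ctsk, Smpd1 and Ids, had medians of 0.05 and 0.43. The Het libraries enter both the enrichment and the deletion values here, so these values are not independent.

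To set enrichment beside response without shared libraries, enrichment was taken within the animals of the other experiment. Across the 46 genes, enrichment in the anti-gp120 animals had a Pearson r of -0.45 and a Spearman rho of -0.61 with the deletion values in forebrain, and -0.84 and -0.82 with those in isolates. Enrichment in the Het animals had an r of -0.70 and a rho of -0.65 with the antibody values in forebrain, and -0.61 and -0.62 with those in isolates. These are descriptions over genes, which are not independent. Within 1 experiment all genes share the same libraries and scaling, and the isolates of both experiments share the isolation procedure. The more a gene was enriched in control isolates, the lower its value with loss or blockade of IL-34 tended to be.

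**Figure D2:**
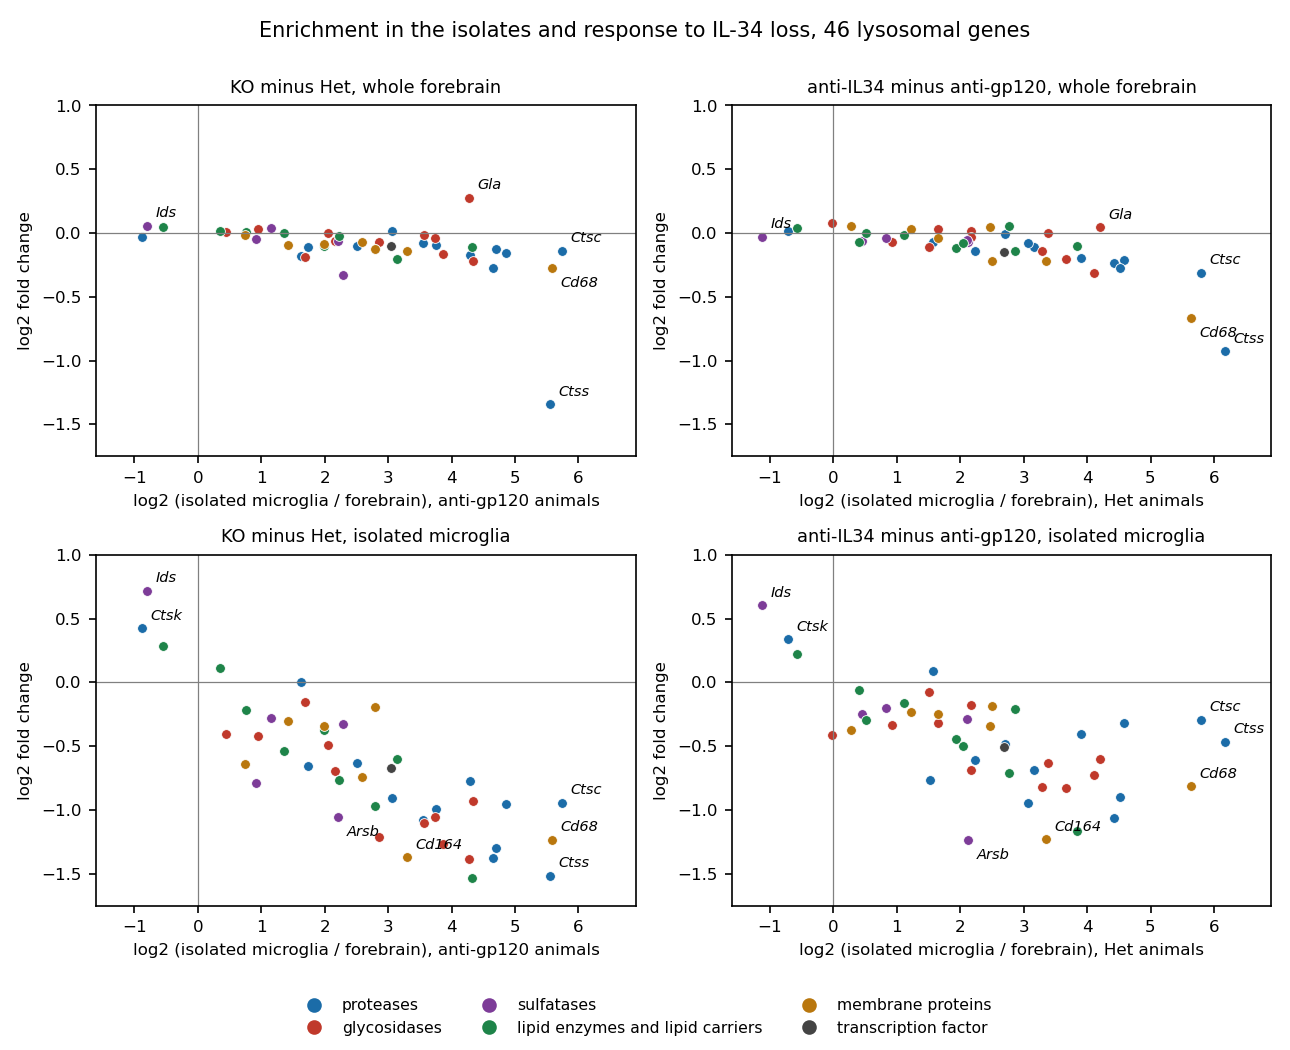
Log2 difference between isolated microglia and forebrain in control animals of the other experiment (x axis) against the log2 fold change with deletion (left) or antibody (right) in forebrain (top) and isolates (bottom); each point is 1 of 46 genes, coloured by role. Ctss lies far below Cd68 and Ctsc in the forebrain of KO animals, and Ids lies above 0 in both isolate panels.

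In the isolated microglia of KO animals lysosomal genes of 5 of the 6 roles were lower. Of the 46, 12 were lower and 0 higher (edgeR, Benjamini-Hochberg adjusted p under 0.05), where 5.22% of the 18185 genes tested were lower, 0.143% higher and 5.37% either. Values below 0 were found for 41 genes (48.6% of all genes tested), with a median of -0.72 against 0.02 over all genes. The groups were separate in the downward direction for 33 genes (19.4% of all genes tested) and in the upward direction for 1 (19.3%). The count rested on the libraries used: it was 0 without Het animal 20, Het animal 23 or any 1 of KO animals 3, 6 and 24, 32 (31 lower) without Het animal 1 and 26 (25 lower) without Het animal 21. Shares of all genes called in these fits without 1 animal are not given here, so the counts show only how far the calls depend on single libraries. DESeq2 called 28 lower and 1 higher, where it called 13% of all genes lower. A fit of all 15 isolates called 27 lower, where it called 12.4% of all genes lower.

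Among proteases 4 passed: Ctss, Lgmn, Ctsd and Ctsf. Ctss was 1084, 1336, 2143 and 1559 CPM in Het isolates and 584, 469 and 545 CPM in KO isolates. Het animal 21 was the highest and the groups did not overlap, and the KO level was 35.0% of Het (log2 -1.52, SE 0.29, edgeR adjusted p = 0.033). Lgmn was -1.38 (SE 0.29, edgeR adjusted p = 0.045), from 1867 ± 562 CPM (n = 4) to 708 ± 55.5 CPM (n = 3, SD). Ctsd was 493, 578, 1005 and 695 CPM in Het and 294, 248 and 292 CPM in KO, with no overlap (log2 -1.30, SE 0.27, edgeR adjusted p = 0.045). Ctsf, a cysteine protease, was lower by less, at 67.4 ± 0.972 CPM in KO (n = 3) and 108 ± 15.7 CPM in Het (n = 4, SD), a log2 value of -0.65 (SE 0.13, edgeR adjusted p = 0.038). The other 9 proteases ran from Ctsa, the protective protein of the sialidase complex, at -1.08 to Ctsk at 0.43.

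Among glycosidases 4 of 11 passed, and all 11 values were below 0. Man2b1, the acid alpha-mannosidase, had the smallest p of the 46 genes, at 487, 567, 680 and 522 CPM in Het and 215, 223 and 260 CPM in KO. The groups were far apart (log2 -1.27, SE 0.18, edgeR adjusted p = 0.016). Naglu, which removes N-acetylglucosamine from heparan sulfate, was -1.06, Gusb, the beta-glucuronidase, -0.93, and Hexa, the alpha subunit of beta-hexosaminidase, -1.10. Their edgeR adjusted p ran from 0.023 to 0.040. Gla had the lowest value of the role, -1.38, with a wide spread in Het, at 78.9, 108.3, 294 and 198 CPM, and did not pass (edgeR adjusted p = 0.12). Fuca1, the fucosidase, was -0.16.

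Of the 5 sulfatases, Arsb and Galns passed. Arsb, which acts on dermatan sulfate, was 565, 533, 836 and 604 CPM in Het and 311, 273 and 312 CPM in KO. The groups did not overlap, and the log2 fold change was -1.06 (SE 0.20, edgeR adjusted p = 0.034). Galns was -0.79 (SE 0.17, edgeR adjusted p = 0.045). Ids, which acts on heparan and dermatan sulfate, had the only value above 0 among the sulfatases, 0.72, from 286 ± 69.0 CPM (n = 4) to 461 ± 72.7 CPM (n = 3, SD), and did not pass (edgeR adjusted p = 0.12). Among the 9 lipid genes only Pla2g15, a lysosomal phospholipase, passed. It was 166, 194, 321 and 244 CPM in Het and 80.3, 74.3 and 82.8 CPM in KO, with no overlap, and the log2 value was -1.53 (SE 0.24, edgeR adjusted p = 0.021), the lowest value of the 46. Smpd1 was highest of the lipid genes at 0.28.

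Of the 7 membrane proteins only Cd164, a sialomucin that cycles through endosomes and lysosomes, passed. It was 450.4, 561, 917 and 613 CPM in Het and 267, 214 and 248 CPM in KO, and the groups did not overlap (log2 -1.37, SE 0.27, edgeR adjusted p = 0.037). Cd68 was similar in size, at 157, 199, 348 and 232 CPM in Het and 110, 85.5 and 100 CPM in KO, and missed the threshold (log2 -1.23, edgeR adjusted p = 0.055). Lamp1 was -0.34 and Cd63 -0.20. Tfeb was 36.9 ± 9.84 CPM (n = 4) in Het and 23.1 ± 1.35 CPM (n = 3, SD) in KO, and did not pass (log2 -0.67, edgeR adjusted p = 0.11).

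**Figure D3:**
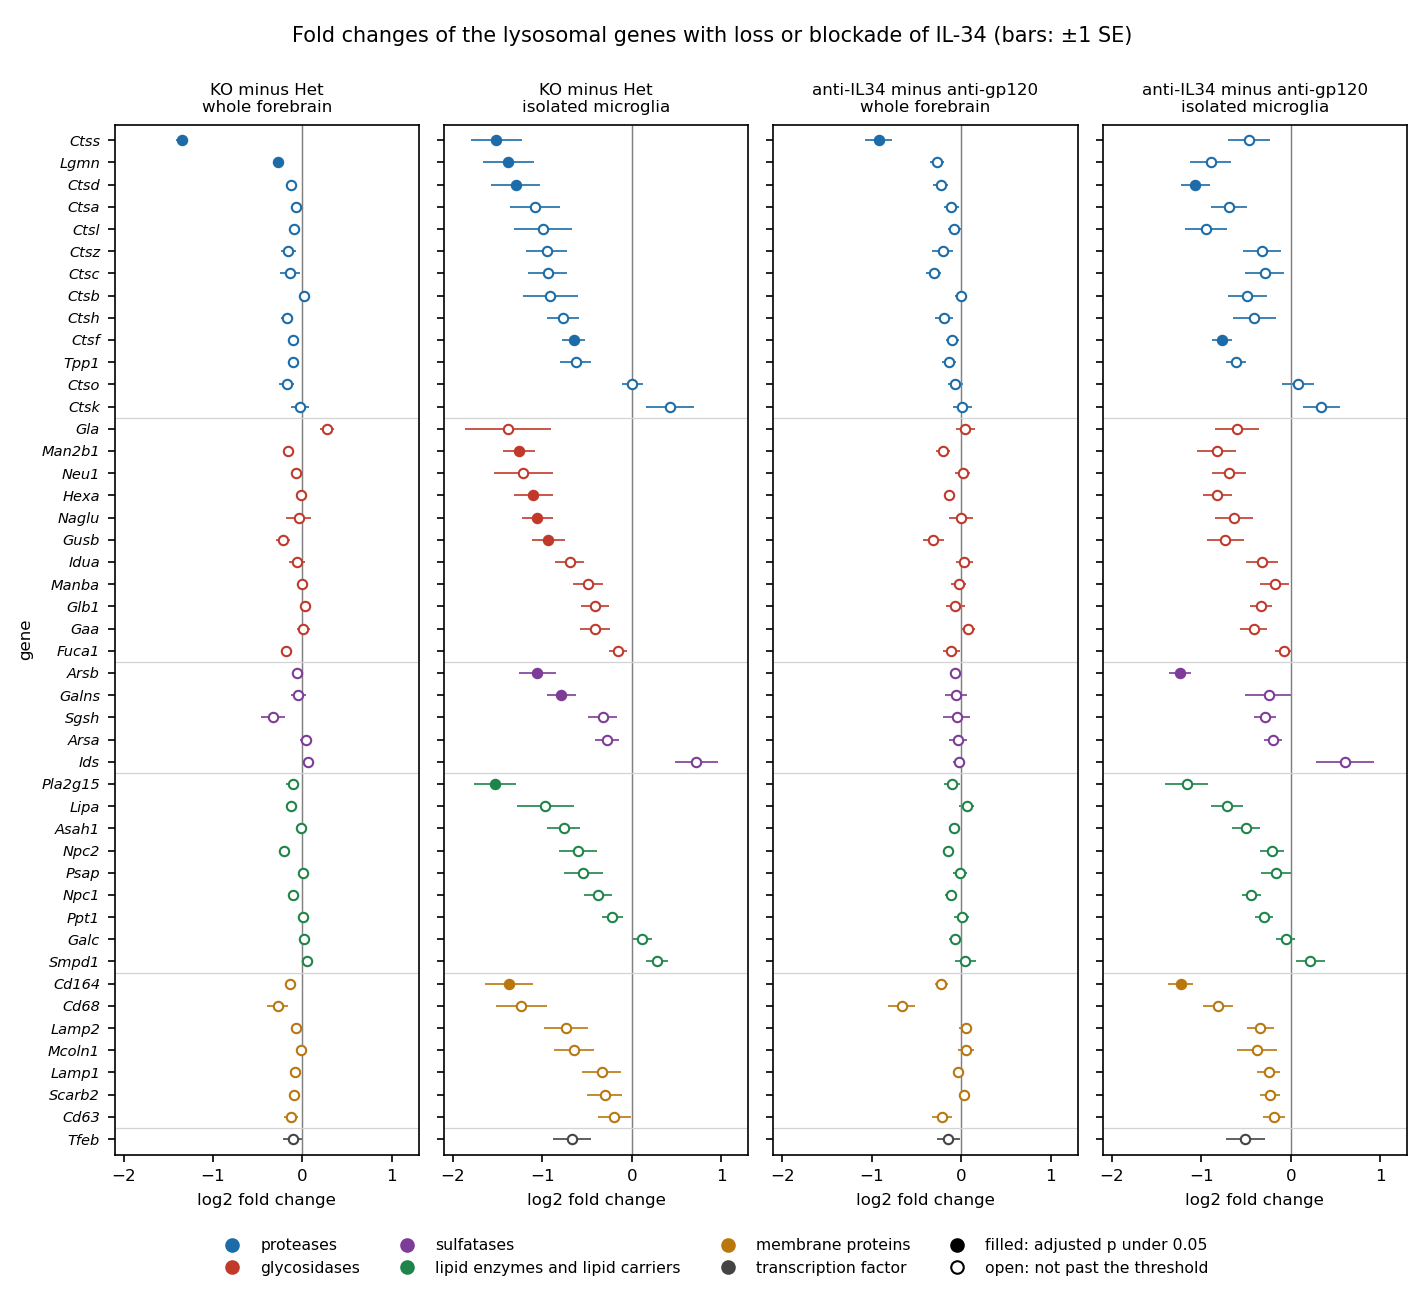
Log2 fold change (x axis) of each of the 46 genes (y axis, grouped by role) in the 4 comparisons, with bars of 1 SE; filled points passed an edgeR adjusted p of 0.05. Most forebrain points lie near 0, with Ctss at -1.34 and -0.92 and Cd68 at -0.67 with antibody apart from them, and isolate points lie mostly below 0, with 12 filled for deletion and 4 for antibody.

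The anti-IL34 antibody lowered 4 lysosomal genes in the isolates: Arsb, Cd164, Ctsf and Ctsd. All 4 had also passed with deletion, where they made up 33.3% of the 12 genes called. The 4 of 46 compare with 0.603% of the 17570 genes tested being lower, and 0 of 46 were higher (0.0228% of all genes). Arsb was 714, 609, 632 and 580.0 CPM with anti-gp120 and 246, 283, 267 and 263 CPM with anti-IL34. Each group was tight and they were far apart, giving 42.4% of the control level (log2 -1.24, SE 0.12, edgeR adjusted p = 0.018). Cd164 was 689, 683, 588 and 582 CPM with anti-gp120 and 227, 305, 268 and 243 CPM with anti-IL34, again with no overlap (log2 -1.23, SE 0.14, edgeR adjusted p = 0.025). Ctsf was 122 ± 13.7 CPM and 70.1 ± 2.54 CPM (SD, n = 4 each; log2 -0.77, SE 0.11, edgeR adjusted p = 0.040). Ctsd was 949 ± 136 CPM and 442 ± 54.4 CPM (SD, n = 4 each; log2 -1.07, SE 0.17, edgeR adjusted p = 0.043).

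The count again rested on single libraries, being 0 when anti-IL34 animal 2, 10 or 24 or anti-gp120 animal 1, 7 or 8 was left out, 9 when anti-IL34 animal 11 was and 33 (31 lower) when anti-gp120 animal 15 was. Here too the shares of all genes called without 1 animal are not given, so the rise in calls cannot be read as particular to the 46 genes. DESeq2 called 19 lower, where it called 8.28% of all genes lower. A fit of all 15 isolates called 12 lower, where it called 4.54% of all genes lower. Values were below 0 for 42 of the 46 genes (45.3% of all genes tested), with a median of -0.41 against 0.06 over all genes. The groups were separate in the downward direction for 18 (13.1% of all genes tested). The upward share of all genes tested was 3.83%. Ctss, which led the forebrain, did not pass here. It was 2797, 1762, 1868 and 2484 CPM with anti-gp120 and 1148, 1910, 1684 and 1500 CPM with anti-IL34, and the groups overlapped (log2 -0.47, SE 0.24, edgeR adjusted p = 0.23). Among the genes that did not pass, proteases ran up to Ctsk at 0.34, glycosidases from Man2b1 at -0.83 to Fuca1 at -0.08, sulfatases up to Ids at 0.61, lipid genes from Pla2g15 at -1.16 to Smpd1 at 0.22, and membrane proteins up to Cd63 at -0.19. Cd68 was -0.81 (edgeR adjusted p = 0.062), Lamp1 -0.25 and Tfeb -0.51.

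The isolates of the 2 arms also differed in their cell-type markers. In the deletion experiment the 15 homeostatic microglia markers summed to 9886 to 17212 CPM in Het and 3771 to 4296 CPM in KO, with all 15 lower and a median log2 fold change of -1.596. In the antibody experiment they summed to 12628 to 17415 CPM and 5465 to 8419 CPM, with 8 of 15 lower and a median of -1.16. Astrocyte markers went the other way, at 3147 to 11083 CPM in Het and 12572 to 15486 CPM in KO, and at 4695 to 18270 CPM and 9997 to 18594 CPM with anti-gp120 and anti-IL34. Excitatory neuron markers summed to 621 to 2320 CPM in Het and 2069 to 3422 CPM in KO, and to 1070 to 3804 CPM and 2952 to 4736 CPM in the antibody arms. Median log2 fold changes with deletion and antibody were 0.99 and 0.96 for excitatory neurons, 0.89 and 0.94 for inhibitory neurons, 0.96 and 0.75 for astrocytes and 0.83 and 0.69 for the oligodendrocyte lineage, and no marker of these lists passed. None of these markers was at 0 in a group. Border-associated macrophage markers summed to 1283 to 1506 CPM in Het, 596 to 1127 CPM in KO, 1138 to 1758 CPM with anti-gp120 and 572 to 813 CPM with anti-IL34. Neutrophil and monocyte markers summed to 36.5 to 52.0 CPM in Het and 32.7 to 85.5 CPM in KO, and to 43.2 to 284 CPM with anti-gp120 and 135 to 437 CPM with anti-IL34. Choroid plexus markers summed to 5.92 to 10.97 CPM with anti-gp120 and 10.3 to 2143 CPM with anti-IL34 (median log2 fold change 2.94), and to 1656 to 3933 CPM in Het and 1155 to 3100 CPM in KO (median -0.54), and none passed. The part of these markers in the values of the lysosomal genes was not tested.

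**Figure D4:**
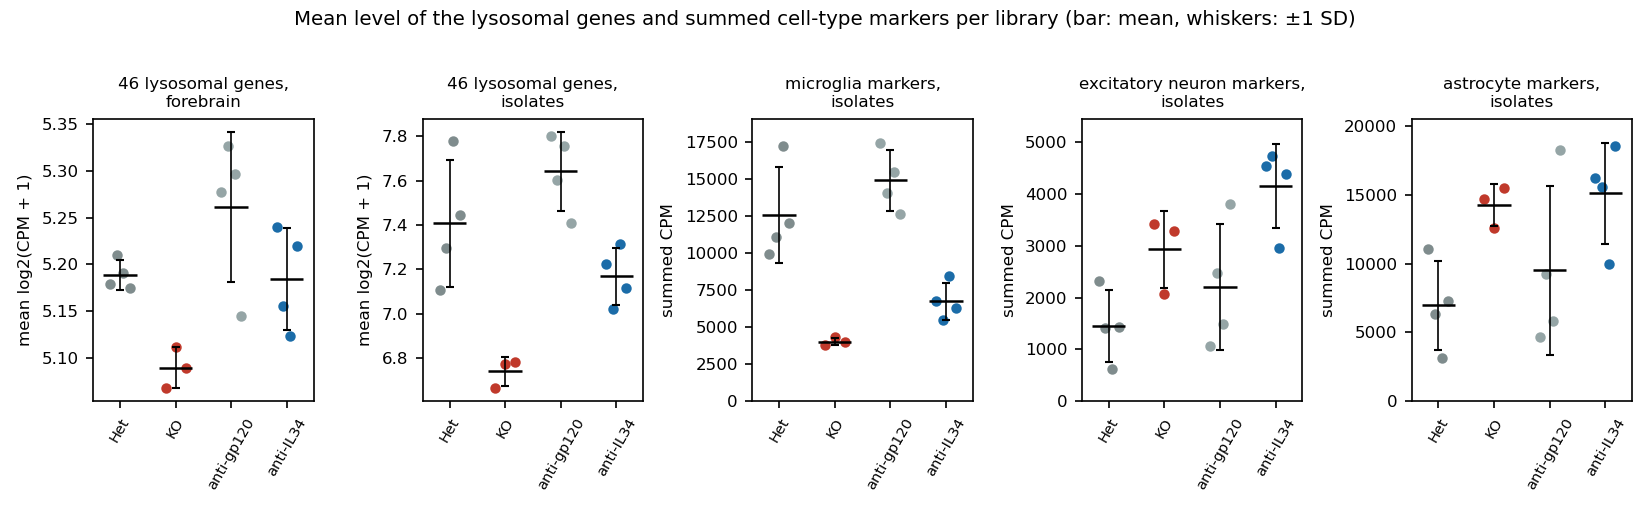
Mean log2(CPM + 1) of the 46 lysosomal genes in forebrain and isolates (2 left panels) and summed CPM of microglia, excitatory neuron and astrocyte markers in the isolates (3 right panels), per library and group; points are libraries, bars means and whiskers 1 SD. The mean of the lysosomal genes in isolates is lower in KO than in every Het library, and the astrocyte sum is higher in every KO library than in every Het library.

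As a mean over all 46 genes, levels were lower with deletion in both tissues and with antibody in the isolates, without overlap between groups. The mean log2(CPM + 1) was 7.41 ± 0.29 (SD, n = 4) in Het isolates and 6.74 ± 0.07 (n = 3) in KO isolates. It was 7.64 ± 0.18 with anti-gp120 and 7.17 ± 0.13 with anti-IL34 (SD, n = 4 each). Libraries ranged from 7.11 to 7.78 in Het and from 6.66 to 6.78 in KO, and from 7.41 to 7.80 and 7.02 to 7.31 in the antibody arms, so neither pair of groups overlapped. In the forebrain the mean was 5.19 ± 0.02 in Het and 5.09 ± 0.02 in KO, with separate groups, and 5.26 ± 0.08 and 5.18 ± 0.05 in the antibody arms, which overlapped. With the median over the genes in place of the mean, the KO forebrain groups overlapped, since KO animal 6 at 5.1883 lay above Het animals 21 (5.1517) and 23 (5.1831). The difference between the antibody arms in forebrain was -0.08 for the mean and -0.1545 for the median. The share of all counts that fell in the 46 genes was 1.79 ± 0.33% in Het isolates, 1.01 ± 0.07% in KO, 2.02 ± 0.40% with anti-gp120 and 1.38 ± 0.20% with anti-IL34. In forebrain it lay between 0.38 and 0.40% in the mean of every group. Among Het isolates, animal 21 had the highest mean of the lysosomal genes (7.78) and the lowest sum of astrocyte markers (3147 CPM). Among anti-gp120 isolates, animal 15 had the lowest mean (7.41) and the highest astrocyte sum (18270 CPM). Among KO isolates, animal 24 had both the highest mean (6.78) and the highest astrocyte sum (15486 CPM). Among anti-IL34 isolates, animal 11 had the highest mean (7.31) and the lowest sum (9997 CPM). Animal 10 of that group had the lowest mean (7.02), whereas animal 24 had the highest sum (18594 CPM). How the mean and the sum relate was not tested.

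The effect of deletion was tested for a difference between tissues over the Het and KO libraries. It was lower in isolates than in forebrain for 5 genes: Pla2g15 at -1.39 (SE 0.26), Cd164 at -1.20 (SE 0.28), Man2b1 at -1.07 (SE 0.18), Hexa at -1.05 (SE 0.24) and Arsb at -0.97 (SE 0.20). Their edgeR adjusted p ran from 0.016 to 0.044, where 2.43% of the 20107 genes tested were lower, 0.552% higher and 2.98% either, and the median over all genes was 0.12. With the animal as a block, 0 of the 46 passed (highest edgeR adjusted p of the 5 was 0.106), and the count was 0 without Het animal 20, Het animal 23 or any 1 KO animal, 29 without Het animal 1 and 24 without Het animal 21. Shares of all genes in the fits without 1 animal are not given here, so those counts show only dependence on single animals. For Ctss the difference was -0.15 (SE 0.28, edgeR adjusted p = 0.74). Values of the other genes ran from Gla at -1.64 (SE 0.52, edgeR adjusted p = 0.088) and Ctsd at -1.14 to Cd63 at -0.04, Fuca1 at 0.06, Smpd1 at 0.27, Ctsk at 0.49 and Ids at 0.69. Cd68 was -0.93, Tfeb -0.53 and Lamp1 -0.23. The effect of the antibody was lower in isolates for 2 genes, Arsb at -1.18 (SE 0.14, edgeR adjusted p = 0.011) and Cd164 at -1.02 (SE 0.15, edgeR adjusted p = 0.028), where 0.087% of the 18399 genes tested were lower, 0.00544% higher and 0.0924% either. With the animal as a block 0 of the 46 passed (edgeR adjusted p = 0.15 and 0.16). The count was 0 without anti-IL34 animal 10 or 24 or anti-gp120 animal 1, 7 or 8, 1 without anti-IL34 animal 2 and 24 when anti-gp120 animal 15 was left out. The same limit holds for these counts without 1 animal. For Ctss the antibody difference was 0.45 (SE 0.31, edgeR adjusted p = 0.38). Among the others Pla2g15 was -1.08, Ctsl -0.88, Ctsd -0.85, Neu1, the sialidase, -0.72, Cd63 0.02, Fuca1 0.02, Smpd1 0.17 and Ids 0.63. Cd68 was -0.16, Tfeb -0.38 and Lamp1 -0.22.

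Deletion and antibody were compared directly in each tissue, since the experiments share no libraries. The effect differed for 0 of the 46 genes in forebrain (0.0101% of 19724 genes) and 0 in isolates (0% of 18732 genes) with edgeR, and for 0 with DESeq2. With edgeR p-values before adjustment, 1 gene was under 0.05 in each tissue, Ctss, where 3.07% of all genes did so in forebrain and 3.95% in isolates. Deletion minus antibody for Ctss was -0.44 in forebrain, with an interval of 2 SE from -0.82 to -0.06, and -1.03 in isolates, from -1.76 to -0.30. Its edgeR adjusted p was 1.00 and 0.938. In forebrain the other differences ran from Sgsh at -0.28 and Lipa at -0.20 to Ctsc at 0.16, Gla at 0.22 and Cd68 at 0.37, with Lamp1 at -0.06, Ctsd at 0.09 and Tfeb at 0.03. In isolates they ran from Gla at -0.77, Ctsc at -0.64 and Ctsz at -0.61 to Ctsk at 0.14, Galc, the galactosylceramidase, at 0.20 and Arsb at 0.20, with Galns at -0.52, Cd68 at -0.40, Ctsd at -0.22 and Lamp1 at -0.07. A miss of the threshold does not show that the effects were alike. Across the 46 genes the deletion and antibody values had a Pearson r of 0.81 and a Spearman rho of 0.69 in forebrain (0.62 and 0.67 without Ctss) and 0.87 and 0.84 in isolates. The genes within an experiment share libraries and scaling. Both values were below 0 for 29 genes in forebrain and 41 in isolates.

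Further genes of the lysosomal route, taken from lists by function, are given for comparison. In KO forebrain 2 of 23 other membrane proteins and transporters were lower, Laptm5 at -1.41 and the metal transporter Slc11a1 at -1.77, where 0.615% of all genes were lower. No gene passed among 19 subunits of the V-ATPase, the proton pump that acidifies the lysosome, 16 genes of sorting to the lysosome, 18 relatives and regulators of TFEB and 3 cystatins. With antibody, forebrain Laptm5 was -1.44 (edgeR adjusted p = 0.0025), past the threshold in 8 of 8 fits without 1 animal.

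In KO isolates 5 of 22 other hydrolases and cofactors were lower, where 5.22% of all genes tested were lower. Among them were Dnase2a, a lysosomal nuclease, at -0.96, Acp2 at -0.72 and Grn, the precursor of granulins, at -1.17. Of 23 other membrane proteins and transporters 5 were lower, led by Slc11a1 at -1.62, Cln3 at -1.05, Slc29a3 at -1.24 and Slc38a9, an amino acid sensor, at -0.70. Of 20 V-ATPase subunits 2 were lower, Atp6v0c at -1.17 and Tcirg1, the a3 subunit, at -1.599. Of 16 sorting genes only Nagpa was lower, at -1.04, a share near that of all genes. Of 19 relatives and regulators of TFEB 3 were lower, Rptor at -0.92, Tfe3 at -0.89 and Flcn at -1.32. These calls passed in 2 of 7 fits without 1 animal. In the antibody isolates no gene of these lists passed with edgeR. Median values there were -0.34 over 22 other hydrolases and cofactors, -0.38 over 23 other membrane proteins, -0.39 over 20 V-ATPase subunits and 0.02 over 19 relatives and regulators of TFEB.

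Some of these values may hold reads of neighbouring genes, since reads were counted over gene spans. Another gene overlapped 20 of the 46, among them Ctsa (Pltp), Ctsb (Fdft1), Ppt1 (Cap1), Idua (Dgkq), Npc1 (Rmc1) and Ctsz (Nelfcd), each with a protein-coding gene on the opposite strand. Whether these genes gained or lost reads by the overlap was not tested. The pseudogene inside Ctss held no counts, which can also follow from how shared reads were assigned. Cd68 and Tfeb had no overlapping gene.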

How the data were processed

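Whole forebrain and CD11b-isolated microglia of 15 mice were sequenced as 30 libraries. The deposited values were raw gene counts that the authors made; STAR 2.7.5c, featureCounts 1.6.3, R 4.4.0 and GRCm38 are named in the submitters' processing notes. The deposited gene length, in bases and of no other unit, equalled the whole gene span for 51183 of 51498 matched genes, all 46 lysosomal genes included, and the strand setting is not given in the sources used here. Animal numbers and sex were taken per the labels and the deposited sample sheet, which matched all 30 libraries. A table of TPM values and 6 columns of no sample here were not used.

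Counts were tested with edgeR 4.0.16 (quasi-likelihood, TMM scaling, filterByExpr, sex as covariate) in R 4.3.3, over all genes of each comparison with Benjamini-Hochberg adjustment at 0.05. All 46 genes passed the filter in every comparison. Each SE was derived from the estimate and its F statistic (estimate over root F). Levels are TMM-scaled CPM within the 15 libraries of a tissue. Alternatives used DESeq2 1.42.0, limma 3.58.1 voom, other scaling and filters, and each animal left out. The scripts were tested on simulated data.

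Libraries of the same animal deviated together (median r 0.166, range 0.0674 to 0.345, 12 of 15 above 0.1, over 17778 genes; unpaired median -0.0545), so the animal was used as a block in an alternative across tissues. The pairing comes from the animal numbers in the labels. The 42 replicate pairs all differed by more than sampling noise (lowest chi-square per degree of freedom 5.48). Library totals ran from 15.06 M to 75.16 M counts. Where the labels do not say how replicates were raised, p-values measure only the spread between these samples.

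The 46 genes and the other lists were chosen with earlier results of these data known. The text names each of the 46 genes past the threshold where at most 12 passed, otherwise the 8 with the smallest p in each direction, then the highest and lowest of each role. Ctss, Cd68, Lamp1, Ctsd and Tfeb are always given, and at most 4 genes of each other list. Part of the results for the list of other hydrolases is not reported here.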

Additional observations from a re-analysis of the deposited data

Results flagged for a closer look

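Of 96 sets of 4 libraries checked for a single library far from the other 3, 5 were flagged, and chance flags about 1 in 20 such groups. In forebrain, Lamp1 was 274.2 CPM in anti-gp120 animal 15 and 294.4 to 295.1 CPM in the others of its group. Cd164 was 55.39 CPM in anti-IL34 animal 10 and 61.98 to 62.51 CPM in the others. Ctsd was 32.83 CPM in anti-IL34 animal 24 and 35.28 to 35.54 CPM in the others, and Naglu was 3.579 CPM in anti-IL34 animal 11 and 4.592 to 4.678 CPM in the others. In isolates, Lamp1 was 795.5 CPM in anti-IL34 animal 10 and 876.9 to 889.4 CPM in the others.

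The effect of deletion differed between isolates and forebrain, by a test of the difference itself (edgeR), for Pla2g15 (-1.39), Cd164 (-1.20), Man2b1 (-1.07), Hexa (-1.05) and Arsb (-0.97) on the log2 scale. The effect of the antibody differed for Arsb (-1.18) and Cd164 (-1.02). None of these passed with the animal as a block.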

How the results depend on the processing

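Among the 46 genes, the number past the threshold moved with the processing, and the cause was not tested. Shares of all genes past the threshold are not given for most settings of this section, so the counts alone do not set the 46 genes apart. In KO isolates it was 12, against 7 with DESeq2-type size factors in edgeR, 22 without a filter on low counts, 21 without the sex term, 27 with all 15 libraries in 1 fit, 29 with DESeq2 and 33 with limma voom, and 0 to 32 leaving out 1 animal. In antibody isolates it was 4, against 12 without the filter, 13 without the sex term, 12 with all 15 libraries, 19 with DESeq2, 29 with voom and 0 to 33 leaving out 1 animal. In KO forebrain it was 2, against 1 with all 15 libraries and 1 to 2 leaving out 1 animal (1 without KO animal 3 or 24). In antibody forebrain it was 1, against 3 without the filter, 2 with DESeq2, 2 with all 15 libraries and 0 to 1 leaving out 1 animal.

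For the difference between tissues, the count for deletion was 5, against 11 without the filter, 24 with DESeq2, 0 with the replicate block and 0 to 29 leaving out 1 animal. For antibody it was 2, against 9, 13, 0 with the block and 0 to 24. With the block, 45 genes differed between isolates and forebrain of controls, as without it, and 44 of 46 were called in the same direction in all 15 settings (the exceptions were Gaa and Mcoln1). The difference in the mean log2 level became, as a median over the genes, -0.0653 for KO forebrain, -0.8851 for KO isolates, -0.1545 for antibody forebrain and -0.6661 for antibody isolates. Of 331 values of 26 named gene results under alternatives, 0 reversed, 137 no longer passed and 194 kept their side of the threshold.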
